A study of Mus musculus with 6 samples.

Results

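The genes described here were the 127 antisense RNA genes that were measurably expressed in mouse blastocysts. They were chosen by their gene type in the GENCODE M21 annotation (antisense) and selected on their level, which had to reach 1 FPKM in 3 or more of the 6 libraries. FPKM are the fragments per kilobase of transcript, scaled to the fragments of a library. The expression table held 55774 rows, 2959 of them antisense genes, so 4.29% of the annotated antisense genes passed. A further 1279 were listed at 0 in all 6 libraries.

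The blastocysts came from embryos at the 2-cell stage of wild-type (WT) ICR mice, an outbred stock, kept for 75 hours in CZB embryo culture medium. In the oEV-EMT group the medium contained oviductal extracellular vesicles, small membrane particles, from human Fallopian tubes of women with endometriosis. In the oEV-ctrl group the vesicles came from women with uterine fibroids according to the sample labels, whereas the study's methods name another gynecological condition for these controls. Each library was made from polyadenylated RNA of 1 pool of 10 embryos, and each group had 3 libraries. Embryos grown without human vesicles were not sequenced, so both groups share that exposure. Nothing in the labels says that the pools came from separate mice or vesicle preparations, and the tests therefore measure only the spread between these pools.

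Antisense RNAs are transcribed from the strand opposite to another gene. Some act on that neighbor: Tsix restrains Xist, the RNA that silences an X chromosome, and Airn silences the paternal copy of Igf2r, the receptor that clears insulin-like growth factor 2. Others are by-products of promoters that fire in both directions, and many are quickly degraded by the nuclear RNA exosome. In female blastocysts the outer trophectoderm keeps the paternal X chromosome silent, so the Tsix and Xist pair is at work at this stage.

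The 127 genes lay on 20 chromosomes, 4 of them on the X chromosome, with a median of 1118 exonic bases. For 110 of them a protein-coding gene was annotated on the other strand, and the main partner was the one with the highest mean FPKM. In 42 pairs the genes were arranged head to head, with their starts overlapping. In 37 pairs the antisense gene lay inside the partner, in 25 pairs the ends overlapped tail to tail, in 6 pairs the partner lay inside the antisense gene, and 17 antisense genes had no coding partner. Of the 110 main partners, 79 passed the same level filter. The exons of 43 antisense genes shared no base with a coding exon on the other strand, and in 59 genes 10% or more of the exonic bases did. These counts leave out opposite exons of genes not listed as protein-coding. Such exons cover 32.6% of the exonic bases of Tsix, 94.7% of BC023719 and 98.6% of Gm14549, which are among the 43. The library kit is not stated to keep the strand, so reads from a shared exon cannot be assigned to the antisense gene or to its partner.

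The following stretches show where antisense RNAs mirror the RNA on the other strand (GRCm38, from the GENCODE M21 transcripts, all 5′ to 3′). The first pair is the start of the coding sequence of Ftl1, the ferritin light chain, on chr7:45459542-45459631 (minus strand), and the part of the antisense RNA Gm47428 that is its exact complement, on chr13:74406604-74406693 (minus strand). Capitals mark the start codon. From this codon on, 134 coding bases of Ftl1 were identical in Ftl1-ps1, the gene that Gm47428 lies opposite to, which GENCODE M21 lists as protein-coding despite its name.
Ftl1: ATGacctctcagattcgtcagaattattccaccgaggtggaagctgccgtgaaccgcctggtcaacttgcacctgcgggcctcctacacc
Gm47428: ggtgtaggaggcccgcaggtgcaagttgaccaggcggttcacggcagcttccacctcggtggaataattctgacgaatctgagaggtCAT

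The second pair is coding sequence of Mt2, a metallothionein that binds zinc and copper through cysteines, on chr8:94173336-94173412 (plus strand), and the RNA Gm45774 on the minus strand of the same bases. Capitals mark the 9 cysteine codons (TGC or TGT in frame). Of the 183 coding bases of Mt2, 171 lay over Gm45774.
Mt2: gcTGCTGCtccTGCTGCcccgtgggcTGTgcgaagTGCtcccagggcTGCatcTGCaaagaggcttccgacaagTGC
Gm45774: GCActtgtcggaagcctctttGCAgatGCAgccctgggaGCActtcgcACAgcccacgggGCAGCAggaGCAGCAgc

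The third stretch, on chrX:103483210-103483299 (plus strand), shows Tsix leaving the Xist gene. Capitals mark the bases over the first exon of Xist, which is transcribed in the other direction.
Tsix: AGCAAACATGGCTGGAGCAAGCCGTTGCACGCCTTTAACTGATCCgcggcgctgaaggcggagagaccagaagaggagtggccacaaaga

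Spliced reads, in contrast, can be placed on a strand by the intron they skip. The following junctions belong to 3 of the antisense genes whose groups did not overlap, and none of their bases lies in a coding exon on the other strand. Capitals mark the last 4 bases of the upstream exon and the first 4 of the downstream exon. They span chr11:96921020-96921828 (Gm11525, minus strand), chr16:4033023-4034530 (Gm15879, minus strand) and chr1:96872639-96877863 (Panct2, plus strand). How many deposited fragments were spliced cannot be read from FPKM.
Gm11525: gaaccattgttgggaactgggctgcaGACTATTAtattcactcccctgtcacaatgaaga
Gm15879: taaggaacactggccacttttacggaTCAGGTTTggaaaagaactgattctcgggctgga
Panct2: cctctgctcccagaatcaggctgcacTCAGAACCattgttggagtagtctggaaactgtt

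Most of the antisense RNAs were scarce. Their median mean level was 2.01 FPKM, 63 lay under 2 FPKM and 17 exceeded 10 FPKM. Together they made up between 0.062% and 0.0746% of the summed FPKM of a library. In all 6 libraries 72 of them reached 1 FPKM, and 17, 19 and 19 did so in 5, 4 and 3 libraries. Of the last 19, Gm48853, Gm15491, 1700084E18Rik and 1700010K24Rik reached 1 FPKM in the 3 oEV-EMT libraries only and Gm36816 in the 3 oEV-ctrl libraries only. For these 5 the level filter itself required that the groups differ, so a difference between the groups is no result for them. The genes next to the limit were Gm16143 and Gm48900 just inside, whose 3rd highest libraries held 1.00 and 1.01 FPKM, and Gm16174 and C920021L13Rik just outside, with 0.998 and 0.979 FPKM.

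Depth differed between libraries. Whole-fragment steps in the low values gave 36.8, 21.5 and 25.2 fragments per FPKM and kilobase for oEV-EMT and 17.8, 24.4 and 32.4 for oEV-ctrl, a range of 2.07 times. The shallowest library, oEV-ctrl 1, held the lowest value of 47 of the 127 antisense RNAs, and 93 of them reached 1 FPKM there, against 106 to 118 in the other libraries. The deepest library, oEV-EMT 1, held the lowest value of 24, and oEV-EMT 3 held the highest value of 47. The part of depth in these counts was not tested. Markers of other cells were low: the summed FPKM of 5 cumulus and granulosa genes was at most 0.486, of 3 oviduct epithelium genes at most 0.349, of 3 sperm genes at most 0.843 and of 2 blood genes at most 2.22, all of it from the hemoglobin gene Hba-a1, with Fshr, Foxl2, Amh, Foxj1, Tnp1 and Ptprc under 0.1 FPKM in every library. The trophectoderm markers Krt8 and Krt18 averaged 1179 and 2556 FPKM with oEV-EMT and 1191 and 2589 FPKM with oEV-ctrl, and none of 6 trophectoderm markers was at an unadjusted p of at most 0.05 in limma. Of 4 epiblast markers, 3 (Nanog, Pou5f1 and Fgf4) lay above every oEV-ctrl library in all 3 oEV-EMT libraries, as did 18.1% of all genes tested. The remaining marker, Sox2, went the other way with overlapping groups (log2 fold change -0.32). The 4 summed to between 77.7 and 94.0 FPKM against between 29.6 and 57.4 FPKM. Of 4 primitive endoderm markers, Gata4 and Sox17 were higher at the unadjusted p, with log2 fold changes of 0.82 and 0.96, the groups overlapping for Sox17. Of all genes tested, 12.8% were higher at that p. Gata6 and Pdgfra had log2 fold changes of -0.19 and 0.08, with overlapping groups. The 4 summed to between 26.7 and 40.9 FPKM against between 28.0 and 33.9 FPKM. The part of these marker differences in the antisense values was not tested, and in pooled embryos fewer cells of a type and less RNA per cell cannot be told apart.

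**Figure D1:**
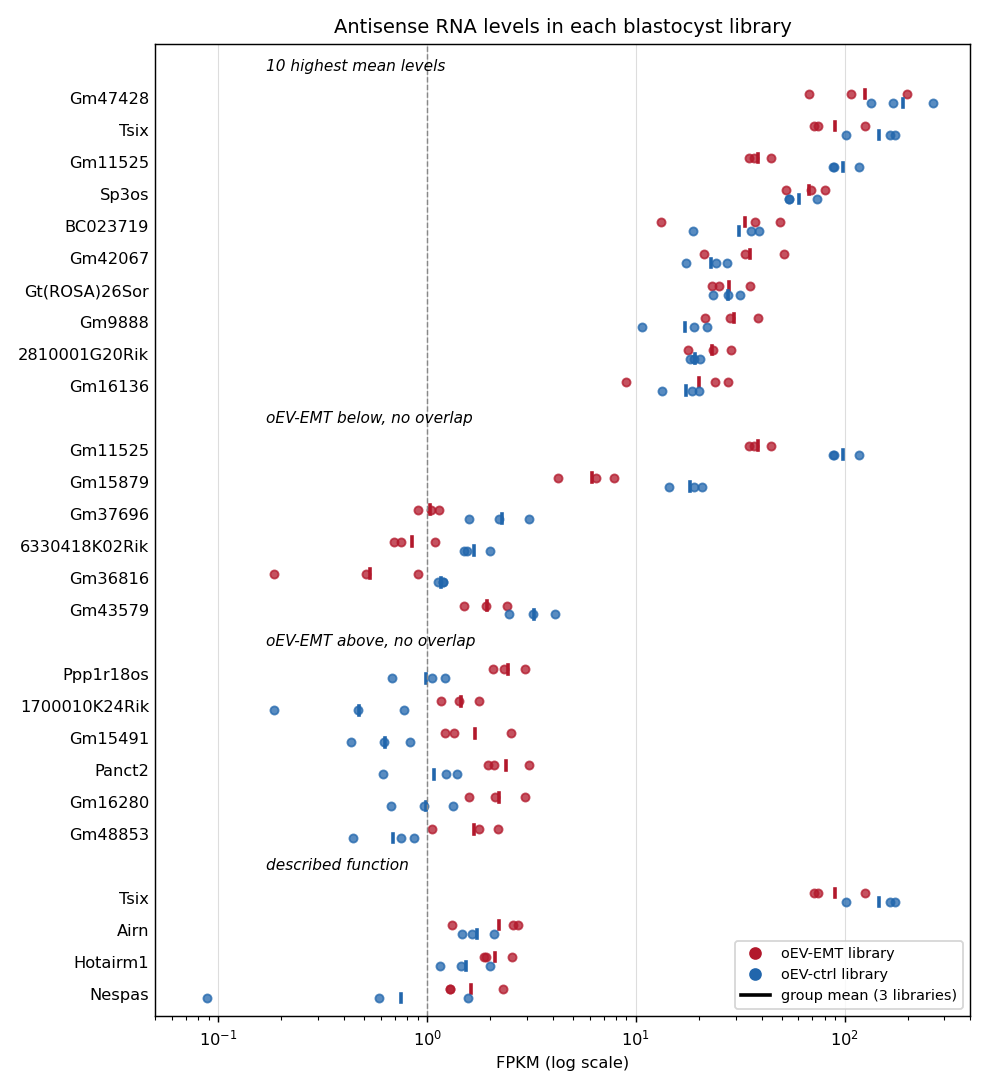
FPKM on a log scale of the antisense RNAs with the highest mean level, of those whose groups did not overlap and had the smallest p-values in each direction, and of those with a described function; points are libraries, short bars are group means and the dashed line is 1 FPKM. Gm11525 sits between 34.7 and 44.2 FPKM with oEV-EMT and between 87.9 and 117 FPKM with oEV-ctrl.

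The most abundant antisense RNA was Gm47428 (ENSMUSG00000113311, chr13:74404183-74406737). It measured 107, 199 and 67.5 FPKM in the 3 oEV-EMT pools and 265, 134 and 170 FPKM in the 3 oEV-ctrl pools. The groups overlapped, and the log2 fold change was -0.69 ± 0.40 (SE, n = 3 per group, limma adjusted p = 0.451). Its partner Ftl1-ps1 averaged 1079 FPKM and Ftl1 itself 5357 FPKM, and 39.5% of the 50-base stretches of Gm47428 were identical to Ftl1 on the other strand. Its level was between 1.37% and 4.31% of that of Ftl1, so its value is uncertain.

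Tsix (ENSMUSG00000085715, chrX:103431517-103484957) came next. It measured 71.3, 74.1 and 124 FPKM under oEV-EMT, against 101, 173 and 165 FPKM under oEV-ctrl. Only the highest oEV-EMT library overlapped the lowest oEV-ctrl library, and the log2 fold change was -0.71 ± 0.28 (SE, limma adjusted p = 0.275). Xist, the RNA that coats the silent X chromosome, measured 5.61, 6.42 and 10.4 FPKM against 5.80, 4.18 and 21.6 FPKM, with no separation of the groups (log2 fold change -0.17 ± 0.54, SE, limma adjusted p = 0.90). Per length, Tsix was 12.7, 11.6 and 11.9 times as high as Xist with oEV-EMT and 17.5, 41.4 and 7.62 times with oEV-ctrl. The ratio was nearly constant in the first group and spread widely in the second. Of the exonic bases of Tsix, 32.6% lay over exons of Xist, and the embryos' sexes are not given for the pools. Without strand, reads of that part cannot be assigned to either gene. The values of Tsix and Xist and their ratio are therefore uncertain.

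Gm11525 (ENSMUSG00000085307, chr11:96918941-96922493) had no coding partner. It measured 44.2, 34.7 and 36.7 FPKM with oEV-EMT and 117, 88.9 and 87.9 FPKM with oEV-ctrl. Every oEV-EMT library lay below every oEV-ctrl library, with means of 38.5 ± 4.99 and 97.9 ± 16.4 FPKM (SD, n = 3) and a log2 fold change of -1.32 ± 0.21 (SE). The limma adjusted p-value over all 11924 genes was 0.0951, above the study's limit of 0.05. The noncoding gene on its other strand, D030028A08Rik, stayed under 1 FPKM in every library (0.141 to 0.616 FPKM), and 7.33% of the 50-base stretches of Gm11525 recurred in other genes.

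The other 7 of the 10 most abundant antisense RNAs had groups that overlapped. Sp3os, which starts next to the gene of the transcription factor Sp3, measured 52.2, 69.3 and 80.6 FPKM against 54.4, 73.8 and 53.9 FPKM. Per length its mean was 517% of that of Sp3 (12.4 FPKM). Gt(ROSA)26Sor, the locus used for transgenes because it is active in nearly all cells, measured 24.9, 23.2 and 35.1 FPKM against 23.4, 31.5 and 27.7 FPKM. Their log2 fold changes, 0.14 ± 0.23 and -0.00255 ± 0.23 (SE), were smaller than their errors. Gm9888, head to head with Cmtm7, measured 21.5, 38.3 and 28.3 FPKM against 19.1, 10.7 and 21.9 FPKM (log2 fold change 0.76 ± 0.30, SE, limma adjusted p = 0.275). Gm42067, 2810001G20Rik and Gm16136 had log2 fold changes of 0.54, 0.24 and 0.09.

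The remaining one, BC023719, lay over the class I histocompatibility pseudogene H2-T10, and its relative A930015D03Rik over H2-T22. BC023719 measured 49.1, 13.2 and 37.2 FPKM in the 3 oEV-EMT pools and 35.7, 38.9 and 18.7 FPKM in the 3 oEV-ctrl pools. A930015D03Rik, named here after its values were seen, measured 0.132, 14.4 and 13.3 FPKM against 0.0855, 11.4 and 15.9 FPKM. It was nearly missing from oEV-EMT 1 and oEV-ctrl 1 and above 11 FPKM in the other 4 libraries. The RNAs share 277 identical 50-base stretches, and their sum ranged less, from 27.6 to 50.6 FPKM, with A930015D03Rik making up 0.269% and 0.239% of it in those 2 libraries and between 22.6% and 52.1% in the rest. Replicate 1 of both groups thus stood apart for A930015D03Rik. Of its exonic bases, 90.3% lay over exons of H2-T22, so its reads can hardly be assigned without strand. With 1 FPKM added to both, its log2 ratio to H2-T22 was -2.82 and -2.59 in those 2 libraries. In the rest it lay between 1.57 and 4.04. The cause was not tested.

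Across all genes the comparison of oEV-EMT with oEV-ctrl gave no call: 0 of 11924 genes (0.0%) passed an adjusted p-value of 0.05 with an absolute log2 fold change of 1 in limma, and likewise 0 of the 127 antisense genes. The study, which used another method (DESeq2) at these thresholds, did report differentially expressed genes. The absence of calls therefore holds for limma on FPKM only. At an unadjusted p of at most 0.05, 15 antisense genes (11.8%) were higher in oEV-EMT, against 12.8% of all genes tested, and 8 (6.3%) were lower, against 2.55%. In 19 antisense genes (15%) every oEV-EMT library lay above every oEV-ctrl library, against 18.1% of all genes, and in 9 (7.09%) every one lay below, against 4.34%. The median log2 fold change was 0.16 for the antisense genes and 0.17 for all genes, a relative shift of -0.016.

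These directions depended on the scaling of the libraries. With median-of-ratios scaling, which brings the median of all genes to 0.01, 9 antisense genes were higher and 13 lower at the same unadjusted p. With upper quartile scaling the split was 6 to 14, and with a common sum per library 19 to 6. Groups without overlap split 8 above to 11 below under the first and 7 to 12 under the second. Without oEV-ctrl 1, the shallowest library, 9 antisense genes were at an unadjusted p of at most 0.05 in place of 23, 8 of them among those 23, with 5 higher and 4 lower. Without oEV-EMT 3 there were 15, 11 of them among the 23, with 7 higher and 8 lower. These counts cover the antisense genes only. The shares of all genes under the same settings are not given here, so the splits cannot be called particular to antisense genes.

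Other noncoding classes are given as a description beside the antisense genes, and the differences in shares were not tested. Of 225 lincRNA genes, 13.8% were higher and 3.11% lower at the unadjusted p, and of 1168 processed pseudogenes 8.9% and 6.59%. Of 9603 protein-coding genes the shares were 12.3% and 1.61%. By arrangement, 6 of 42 head to head genes were higher and 3 lower, 3 and 2 of the 37 inside their partner, 3 and 1 of the 25 tail to tail genes, and 2 and 2 of the 17 without a coding partner. By shared exons, there were 8 higher and 4 lower of the 68 genes with under 10% of their exonic bases over coding exons, and 7 and 4 of the other 59.

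**Figure D2:**
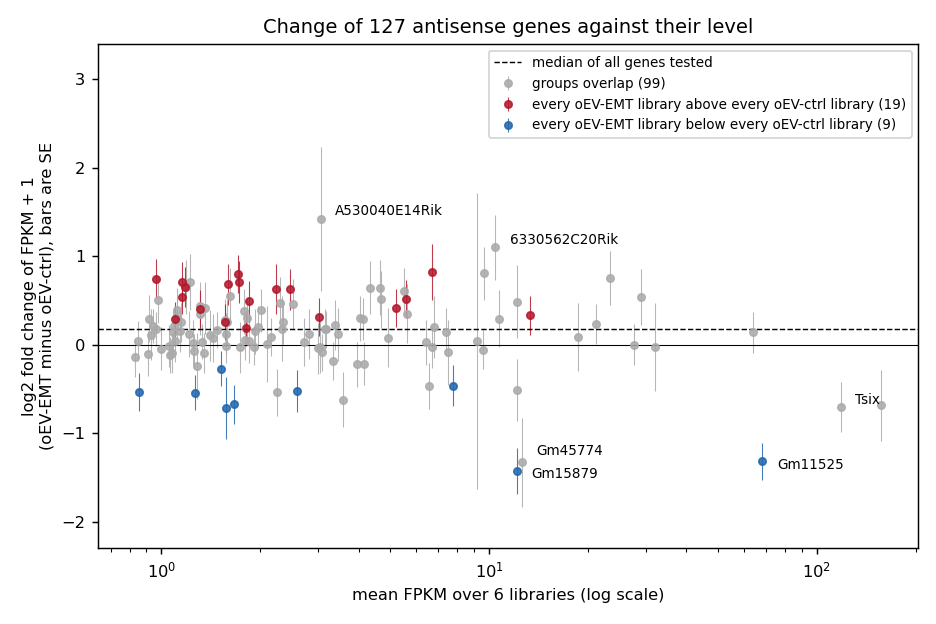
Log2 fold change of FPKM + 1 with its SE against the mean FPKM over 6 libraries (log scale) for the 127 antisense genes; 19 genes have every oEV-EMT library above, 9 below, and the dashed line is the median of all genes tested (0.17). Gm11525 and Gm15879 have log2 fold changes of -1.32 and -1.43, and the long error bar near 9 FPKM belongs to A930015D03Rik.

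Among the antisense RNAs below the control range, Gm15879 (ENSMUSG00000084790, chr16:4032839-4037847) had the most negative value. It measured 6.44, 4.24 and 7.86 FPKM under oEV-EMT, against 19.0, 20.7 and 14.4 FPKM under oEV-ctrl. The groups were far apart, with means of 6.18 ± 1.82 and 18.1 ± 3.26 FPKM (SD, n = 3) and a log2 fold change of -1.43 ± 0.26 (SE, limma adjusted p = 0.101). Its head to head partner Dnase1, a secreted nuclease, was at most 0.396 FPKM, and 49.3% of the exonic bases of Gm15879 lay over coding exons. Across 14 other limma fits the adjusted p ranged from 0.0596 to 0.331, and that of Gm11525 from 0.0556 to 0.325. With library quality weights, chosen after seeing the data, both passed the limit of 0.05, with adjusted p-values of 0.0333 and 0.0275 in limma.

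The 4 others named by the rule lay below the control range at lower levels. Gm37696, opposite the start of the small GTPase gene Rap2b, measured 0.909, 1.14 and 1.04 FPKM against 3.09, 2.20 and 1.59 FPKM. 6330418K02Rik, at the end of Gal3st4, measured 0.694, 1.09 and 0.750 FPKM against 2.0, 1.55 and 1.51 FPKM. Gm43579, inside the RNA helicase gene Ddx54, measured 1.91, 2.42 and 1.49 FPKM against 4.08, 2.46 and 3.20 FPKM, and its groups nearly touched. Gm36816, inside the G protein subunit gene Gng12, measured 0.185, 0.511 and 0.900 FPKM against 1.13, 1.20 and 1.19 FPKM, but shared 24.1% of its stretches with other genes. Gm36816 passed the level filter through its oEV-ctrl libraries alone, which fixed its direction. The log2 fold changes of the other 3 ran from -0.68 to -0.52, and their limma adjusted p-values from 0.214 to 0.325. Rap2b, Ddx54 and Gng12 themselves had log2 fold changes of 0.26, 0.06 and -0.02, and Gal3st4 was listed at or near 0. Of the exonic bases of 6330418K02Rik and Gm43579, 65.6% and 66.5% lay over coding exons.

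The 6 antisense RNAs above the control range with the smallest p-values were scarce, none over 3.09 FPKM in any library. Ppp1r18os (ENSMUSG00000087443, chr17:35860918-35866886) measured 2.06, 2.96 and 2.33 FPKM with oEV-EMT and 1.06, 0.680 and 1.22 FPKM with oEV-ctrl. The groups were separated by a wide gap (log2 fold change 0.80 ± 0.21, SE, limma adjusted p = 0.164). It overlaps 2 coding genes, with 34.4% of its exonic bases over their exons. Nrm, which encodes the inner nuclear membrane protein nurim, had a log2 fold change of 0.97 ± 0.33 (SE), and Ppp1r18, which targets a phosphatase to the cytoskeleton, had one of -0.06.

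1700010K24Rik, head to head with the proteasome subunit gene Psma5, measured 1.42, 1.77 and 1.16 FPKM against 0.184, 0.772 and 0.465 FPKM. With 226 exonic bases this rested on roughly 0.74 to 11.8 fragments per library. Psma5 averaged 357 FPKM and had a log2 fold change of 0.13 ± 0.20 (SE). Gm15491, at the end of Mgea5, the enzyme that removes O-GlcNAc from proteins, measured 1.22, 1.34 and 2.51 FPKM against 0.431, 0.621 and 0.824 FPKM, while Mgea5 had a log2 fold change of -0.08 ± 0.25 (SE). Its head to head partner Npm3, a nucleoplasmin family gene, had one of 0.47 ± 0.27 (SE). Of the exonic bases of 1700010K24Rik and Gm15491, 26.5% and 84.6% lay over coding exons. Without strand, most of the value of Gm15491 therefore cannot be assigned to it or to its partners.

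Panct2, a transcript linked to pluripotency by its name and head to head with the transporter gene Slco4c1, measured 3.09, 1.96 and 2.09 FPKM against 0.614, 1.40 and 1.23 FPKM. Gm16280, inside the scavenger receptor gene Stab2, measured 2.12, 1.58 and 2.94 FPKM against 1.34, 0.674 and 0.963 FPKM. Gm48853, at the end of Dpagt1, which starts N-glycan synthesis, measured 1.06, 1.77 and 2.20 FPKM against 0.439, 0.751 and 0.866 FPKM. In all 3 the oEV-EMT libraries lay above the oEV-ctrl libraries, and the shallowest library, oEV-ctrl 1, was the lowest for Panct2 and Gm48853. The limma adjusted p-values of Ppp1r18os, Panct2 and Gm16280 ran from 0.164 to 0.222. 1700010K24Rik, Gm15491 and Gm48853 passed the level filter through their oEV-EMT libraries alone, which fixed their direction.

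Antisense RNAs with a described function were mostly low: of 29 listed genes found in the table, including lincRNAs, 6 passed the level filter and 14 stayed under 0.1 FPKM in every library. Of these 6, Tsix, Airn, Hotairm1 and Nespas are among the 127. Airn measured 1.31, 2.57 and 2.71 FPKM against 1.47, 1.64 and 2.10 FPKM, and Igf2r had a log2 fold change of -0.11 ± 0.27 (SE). Hotairm1, from the HoxA cluster, measured 2.56, 1.88 and 1.92 FPKM against 1.15, 2.0 and 1.46 FPKM. Nespas, an imprinted RNA of the Gnas locus, measured 2.30, 1.29 and 1.29 FPKM against 0.591, 1.56 and 0.0884 FPKM. All 3 had overlapping groups, and the oEV-ctrl libraries of Nespas differed 17.7-fold among themselves.

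The enzymes that act on antisense and double-stranded RNA are read as counts. Of 21 tested genes of the nuclear RNA exosome and its adaptors, 2 (9.52%) were higher at the unadjusted p and 0 lower, against 12.8% and 2.55% of all genes. The 2 were Exosc5 and the exonuclease Exosc10, named after their values were seen, with means of 59.7 and 37.6 FPKM and of 16.8 and 9.90 FPKM in oEV-EMT and oEV-ctrl. Of 11 tested genes of RNA interference and of the microprocessor, 0 were higher or lower at the unadjusted p in limma, with Dicer1 at 1.64 and 2.22 FPKM. Of 5 adenosine deaminases of double-stranded RNA and their relatives, none passed the level filter, and their summed FPKM lay between 1.30 and 3.27.

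The sense partners are the protein-coding genes on the other strand. Of 134 partners, counting every coding gene that overlaps an antisense gene, 89 were tested. At an unadjusted p of at most 0.05, 10 partners (11.2%) were higher in oEV-EMT and 2 (2.25%) lower, against 12.8% and 2.55% of all genes. The antisense RNA had the higher mean in 19 of the 89 pairs, and its median was 20% of its partner's level per length.

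Relative to the median of all genes, both genes of a pair were higher in 18 pairs and both lower in 29, whereas in 26 pairs the antisense gene was higher and its partner lower and in 16 the reverse held. Spearman's rho over the 89 pairs was 0.199. It was 0.284 in the 46 pairs where 10% or more of the antisense exonic bases lay over exons of the partner and 0.0745 in the other 43. Reads of shared exons cannot be assigned to either gene and all pairs share the same 6 libraries, so these coefficients are descriptions.

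**Figure D3:**
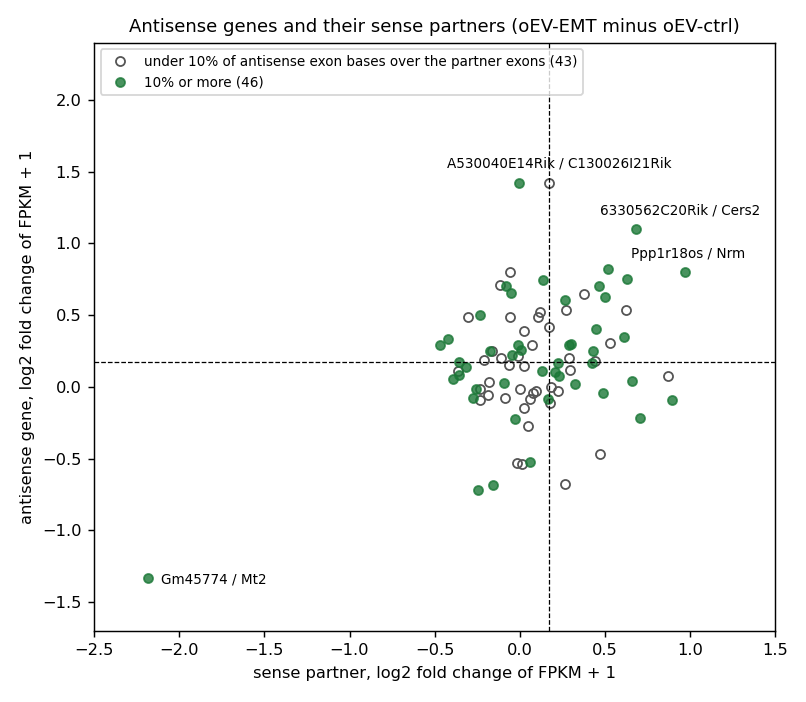
Log2 fold change of FPKM + 1 of the antisense gene against that of its sense partner in 89 pairs; filled points have 10% or more of the antisense exonic bases over exons of the partner, and dashed lines mark the median of all genes (0.17). Gm45774 and Mt2 lie apart at -1.33 and -2.18.

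Gm45774 (ENSMUSG00000110588, chr8:94170748-94173412), the complement of Mt2 printed above, stood farthest from the other pairs. It is named here after its values were seen. It measured 16.0, 3.77 and 3.53 FPKM in the 3 oEV-EMT pools and 17.5, 21.6 and 13.1 FPKM in the 3 oEV-ctrl pools. The libraries oEV-EMT 2 and oEV-EMT 3 were far below the controls, and oEV-EMT 1 lay within their range (log2 fold change -1.33 ± 0.50, SE, limma adjusted p = 0.273). Mt2 measured 2953, 650.0 and 397 FPKM against 5045, 3280.3 and 4288 FPKM, with the same library highest in oEV-EMT (log2 fold change -2.18 ± 0.77, SE, limma adjusted p = 0.287).

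The neighboring metallothionein Mt1 measured 2979 FPKM in oEV-EMT 1 and at most 581 FPKM in the other oEV-EMT libraries, against at least 4755 FPKM in the oEV-ctrl libraries. Gm45774 was from 0.305% to 0.888% of Mt2 in every library. Only 16.2% of its exonic bases lie over exons of Mt2, but without strand the fragments of that part cannot be assigned to either gene.

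Of the 40 head to head pairs, both genes lay above the median of all genes in 12 and both below it in 10. In 11 pairs the antisense gene was above and its partner below, and in 7 the reverse held. Some of the 12 are described here, chosen after their values were seen. 6330562C20Rik measured 6.60, 18.7 and 19.7 FPKM under oEV-EMT, against 4.68, 6.66 and 6.27 FPKM under oEV-ctrl, with oEV-EMT 1 inside the control range (log2 fold change 1.10 ± 0.37, SE, limma adjusted p = 0.222). Its partner Cers2, a ceramide synthase, measured 339, 261 and 264 FPKM against 139, 206 and 196 FPKM, with no overlap. In oEV-EMT 1 the partner was at its highest and the antisense RNA at its lowest within the group. For Gm9888 and Cmtm7, a membrane protein gene, the log2 fold changes were 0.76 and 0.63, and for Gm42067 and the chromatin remodeling subunit gene Dpf2 they were 0.54 and 0.62.

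The ratio of antisense to sense level, with 1 FPKM added to both, separated the groups in 16 of 89 pairs (18.0%). Of 772 pairs of coding genes that overlap on opposite strands, it did so in 17.1%. The ratio was higher in oEV-EMT in 9 pairs and lower in 7. How many of the 16 separate only through the added 1 is not given here. The largest higher ratios were those of A530040E14Rik, Panct2 and AC125059.3, with log2 differences of 1.42, 0.82 and 0.76. A530040E14Rik measured 0.318, 10.7 and 5.08 FPKM against 0.264, 0.875 and 1.09 FPKM, with oEV-EMT 1 inside the control range. Of its stretches, 36.5% recurred in other genes. Its ratio given here is that to C130026I21Rik, which measured 3.01, 8.34 and 7.63 FPKM against 4.54, 6.96 and 6.40 FPKM. Without the added 1, this ratio would be lower in oEV-EMT 1 (0.318 to 3.01 FPKM) than in oEV-ctrl 2 (0.875 to 6.96 FPKM). The groups would then overlap, so the separation of this pair rests on the added 1. The ratio to its other tested partner, A530032D15Rik, did not separate the groups. AC125059.3 measured 1.17, 1.57 and 1.18 FPKM against 0.919, 1.05 and 0.688 FPKM, and its partner, the splicing factor gene Sf3b2, 26.8, 27.3 and 16.7 FPKM against 40.0, 35.2 and 23.7 FPKM.

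Among the lower ratios, the largest log2 differences were -0.99 for 2510046G10Rik and Sgf29, -0.94 for 0610040B10Rik and Zdhhc4, and -0.92 for Gm31597 and Sult2b1. Sgf29, a reader of histone methylation, measured 31.7, 30.6 and 27.5 FPKM against 18.6, 11.3 and 18.2 FPKM (log2 fold change 0.89 ± 0.24, SE, limma adjusted p = 0.164), while 2510046G10Rik had a log2 fold change of -0.09 ± 0.22 (SE). Without the added 1, their ratio would be higher in oEV-EMT 2 (1.52 to 30.6 FPKM) than in oEV-ctrl 1 (0.778 to 18.6 FPKM). The separation of this pair therefore rests on the added 1. Zdhhc4, a palmitoyltransferase, had a log2 fold change of 0.47 and 0610040B10Rik one of -0.47. Sult2b1, which sulfates cholesterol, had one of 0.71 and Gm31597 one of -0.22.

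Besides A930015D03Rik, a few antisense RNAs nearly vanished from a single library. In 7 of the 127 genes the libraries of 1 group differed by 10-fold or more. E530011L22Rik, at the end of Nktr, measured 1.57, 0.00441 and 1.58 FPKM with oEV-EMT and 2.36, 2.23 and 1.73 FPKM with oEV-ctrl. Atad3aos measured 1.28, 0.0435 and 2.31 FPKM against 1.33, 1.66 and 1.09 FPKM. Both were lowest in oEV-EMT 2, and both are named here after their values were seen.

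**Figure D4:**
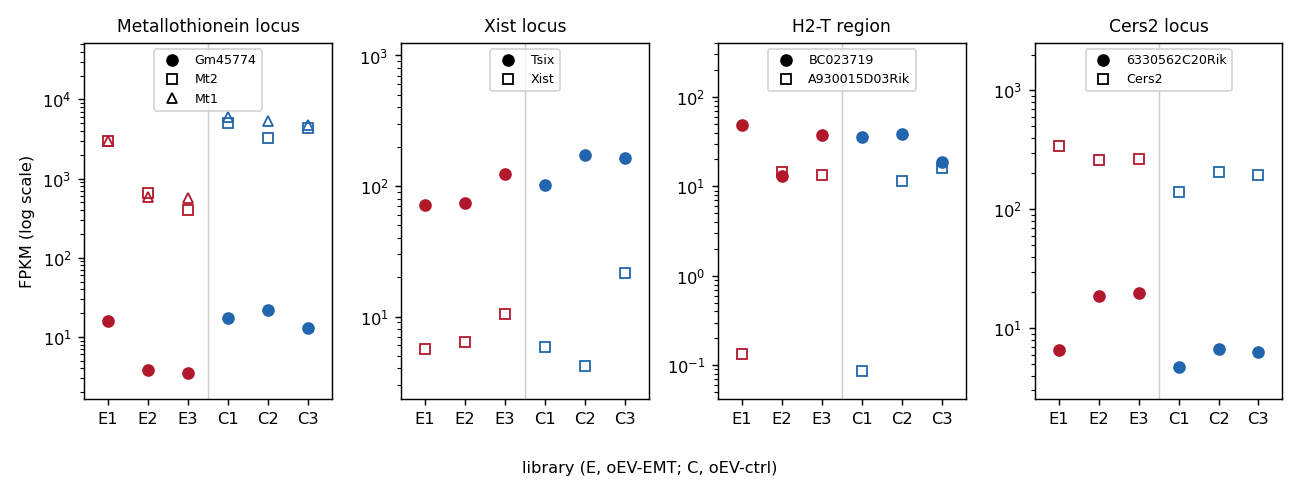
FPKM on a log scale in each library (E, oEV-EMT; C, oEV-ctrl) of antisense RNAs (filled circles, and the open squares in the H2-T panel) and of genes beside or opposite to them at 4 loci. Gm45774, Mt2 and Mt1 are all lowest in oEV-EMT 2 and 3, and A930015D03Rik is near 0 in oEV-EMT 1 and oEV-ctrl 1.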

How the data were processed

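The authors selected polyadenylated RNA, made libraries with the TruSeq RNA kit, sequenced them, assembled transcripts with StringTie (mm10, per the submitters' processing notes) and deposited 1 FPKM value per gene and library. The aligner, the annotation and a strand setting are not given in the sources used here. The methods name TPM, but the deposited values sum to more than 1000000 and were taken as FPKM. Identifiers were matched to GENCODE M21 (GRCm38), 55227 of 55774.

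The 11924 genes that reached 1 FPKM in 3 or more libraries were compared as log2(FPKM + 1), which understates the fold change of low genes, with limma 3.58.1 in R 4.3.3 (trended, robust variance, no further scaling), adjusted by Benjamini-Hochberg over all of them. The thresholds of the study were an adjusted p of 0.05 and an absolute log2 fold change of 1. The script was tested on simulated data. Ratios used log2((antisense + 1)/(sense + 1)). Stretches of 50 bases identical in other genes were searched in the GENCODE transcripts on both strands. Depth was derived from whole-fragment steps in the values of low genes with 1 transcript, and fragment numbers are approximate.

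The genes named were the 10 antisense genes with the highest mean, up to 6 per direction with the smallest p among those without overlap, those with a described function, the 2 on each side of the level limit, the 3 largest ratio changes per direction, and their partners. The members and the lists were chosen with earlier results of these data known. Figures were drawn with matplotlib 3.10.9.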

Additional observations from a re-analysis of the deposited data

How the results depend on the processing

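None of the 127 antisense genes passed both thresholds of the study in limma under any of 14 alternatives (other scalings, filters, pseudocount and variance model, the block, and each library left out). With library quality weights, an alternative chosen after seeing the data, 3 did: Gm11525, Gm15879 and 6330562C20Rik, with log2 fold changes of -1.35, -1.60 and 1.36 and adjusted p-values of 0.0275, 0.0333 and 0.0399, among 104 genes in all. Over the other alternatives these p-values ranged from 0.0556 to 0.325, from 0.0596 to 0.331 and from 0.101 to 0.504. These weights also gave 19 sense partners at an unadjusted p of at most 0.05 in place of 12. Leaving out 1 library at a time gave from 9 to 30 antisense genes at that p in place of 23, from 6 to 20 partners, from 32 to 53 antisense genes without overlap in place of 28, and from 20 to 41 ratios without overlap in place of 16; 2 libraries against 3 overlap less by construction. Without oEV-EMT replicate 1 there were 20 partners, without oEV-ctrl replicates 1 and 2 there were 7 and 6. The shares of all genes without each library are not given here. A refit limited to genes at 1 FPKM or more in all 6 libraries left 72 antisense genes. Of these, 14 were at the unadjusted p, 13 had no overlap, 7 partners were at the p and 6 ratios did not overlap. In the main fit, 7 of the 72 were higher and 5 lower at that p. Among the 68 with under 10% of their exonic bases over coding exons, the numbers in the main fit were 12, 13, 3 and 7. Of all genes, 12.8% were higher and 2.55% lower in the main fit. Their shares in the refit are not given here. Same-numbered libraries of the 2 groups had correlations of 0.119, -0.0442 and 0.0388, and differently numbered ones from -0.135 to 0.122. These values showed no sign of pairing, but so few libraries cannot exclude it. The replicate block gave 26 antisense genes, 0 past both thresholds and 9 partners, and the share of all genes under it is not given here. The log2 fold changes of the 12 genes named for non-overlapping groups kept their sign in all 171 recomputed values. These genes were picked because their groups did not overlap, so leaving out a library or changing the pseudocount could not reverse them. The kept sign is therefore no support for these differences. For genes near 1 FPKM the depth of a few fragments per library limits the precision.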
